A study of Mus musculus with 6 samples.

Results

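The 10 genes described here are those that a fat cell uses to build, coat and break down its lipid droplet and to signal to the rest of the body. They are the hormones Adipoq, Lep and Cfd, the droplet and lipase genes Plin1, Lpl, Lipe and Pnpla2, the glycerol phosphate enzyme gene Gpd1, the nuclear receptor gene Pparg and the fatty acid carrier gene Fabp4. They were chosen by name, as a gauge of the fat that surrounds the aorta, and all 10 had a row among the 18749 gene rows and passed the filter on low counts that left 14466 genes. Whole aortas gave 6 RNA libraries. The recipients were Apoe-/- mice, which lack apolipoprotein E, and all were infused with angiotensin II (Ang II), a blood pressure hormone, for 28 days. Bone marrow came from Apoe-/- donors in 3 libraries, called controls 1 to 3 below, and from Apoe-/-Sept2C111A donors in the other 3, called Sept2C111A 1 to 3, so that the Sept2C111A allele was carried by cells of marrow origin, while the vessel wall and its fat cells came from the Apoe-/- host in both groups. Age, strain, conditioning before transplant and how the Sept2C111A allele was made are not given by the sources used here, nor is the amount of surrounding fat left on the vessel. Library totals ran from 17082719 to 20494928 counts, and between 16747 and 17074 genes had a read. Smooth muscle genes, which mark the aortic wall, were abundant in all 6 libraries, least so in control 3. Gene positions are from the GENCODE annotation of build mm10.

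White adipocytes store triglyceride in a large droplet whose surface is sealed by perilipin-1. Fatty acids enter after lipoprotein lipase splits circulating triglyceride, are carried by FABP4, joined to glycerol 3-phosphate made by GPD1, and leave again when adipose triglyceride lipase (Pnpla2) and hormone-sensitive lipase (Lipe) cut the stored fat. PPARG is the transcription factor that turns this programme on. The mouse aorta is wrapped in perivascular fat, which along the thoracic aorta is rich in brown adipocytes, cells that burn fat through the uncoupling protein UCP1. Adiponectin, leptin and the complement protease adipsin (Cfd) are released by fat cells, whereas Lpl, Fabp4 and Pparg are also known from macrophages, and Fabp4 from capillary endothelium, so they are less specific to fat.

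The start regions of 7 of the 10 genes were found in a RefSeq table of promoters (build GRCm38.p6), and 3 are shown because they hold a match to TTGCNNAA, a core that C/EBP factors, partners of PPARG in fat cells, can bind. Each sequence is the 200 bases before a transcription start, on the strand of the gene, with the match in capitals. The Lep region is chr6:29060021-29060220 (plus strand), the Plin1 region chr7:79732777-79732976 (minus strand), and the Pparg region chr6:115421866-115422065 (plus strand), which is the most downstream of 3 Pparg starts in the table.
Lep: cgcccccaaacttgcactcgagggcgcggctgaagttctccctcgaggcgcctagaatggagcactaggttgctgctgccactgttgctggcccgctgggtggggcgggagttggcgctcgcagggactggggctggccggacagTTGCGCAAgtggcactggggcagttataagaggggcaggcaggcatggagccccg
Plin1: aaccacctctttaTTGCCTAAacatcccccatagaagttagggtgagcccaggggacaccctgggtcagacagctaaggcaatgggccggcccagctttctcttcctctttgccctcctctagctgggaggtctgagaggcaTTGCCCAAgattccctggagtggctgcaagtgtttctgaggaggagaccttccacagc
Pparg: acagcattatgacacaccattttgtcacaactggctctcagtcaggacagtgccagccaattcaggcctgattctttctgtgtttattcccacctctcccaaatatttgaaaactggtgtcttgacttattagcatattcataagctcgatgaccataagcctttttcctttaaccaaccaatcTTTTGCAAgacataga
The matches shown begin 55 bases before the Lep start and 187 and 58 bases before the Plin1 start. The match shown for Pparg begins 16 bases before the start, on the opposite strand. Another Pparg match begins 215 bases before the same start, outside the 200 bases shown. The table gives these 7 genes 10 windows, each of 250 bases before to 50 bases after a start. Searched on both strands, 3 of the 10 windows held TTGCNNAA, against 10.8% of 32817 windows of all genes. A pair of AGGTCA half-sites in direct repeat with 1 base between them, a form of the PPAR response element, was found in 0 of the 10 and in 0.0396% of all windows. The single half-site, which is part of the former, was found in 2 of the 10, both Pparg starts, and in 16.3% of all. A match is a stretch of letters, not a measured site. Cebpa, a C/EBP factor of mature fat cells, is named here because of these letters and after its values were seen. It was at 73.6, 107 and 83.0 CPM (counts scaled to a common library size) in controls and 169, 98.4 and 133 CPM in Sept2C111A recipients, overlapping groups with a log2 change of 0.60 (SE 0.24, edgeR adjusted p = 0.331). Counts per gene do not separate the Pparg starts.

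CPM were taken relative to TMM-scaled library sizes, a scaling that makes most genes level between libraries. The summed level of the 10 genes was 3856, 3028 and 1499 CPM in controls 1 to 3 and 7282, 3119 and 6346 CPM in Sept2C111A 1 to 3. Control 3 was low, Sept2C111A 1 and 3 were high, and controls 1 and 2 lay close to Sept2C111A 2. The group means of the log2 sums differed by 1.01, with p = 0.2 in a two-sided exact permutation test over 3 against 3 libraries, which cannot give less than 0.1, and by 0.62 without control 3. In whole tissue, a lower level from fewer fat cells and one from less RNA per fat cell cannot be told apart.

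No gene of the 10 passed the test between the groups. All 10 had a higher mean in Sept2C111A recipients, with log2 fold changes (Sept2C111A minus control, log2 changes below) from 0.63 to 2.16 and a median of 0.95, where 50.1% of all genes tested had a value above 0 and the median of all was 0.00093. By edgeR's quasi-likelihood test adjusted over all genes, 0 of the 10 were called, as were 0% of the 14466 genes. DESeq2 called 0 of the 10 as well, where it called 1.1% of genes higher and 2.9% lower. The groups overlapped for each of the 10, where 11.2% of all genes lay wholly higher in Sept2C111A recipients. Sept2C111A 2 lay below the highest control for 9 genes, and for Cfd, where it lay above all 3 controls, Sept2C111A 3 lay below the highest. At an unadjusted p under 0.05 edgeR gave 1 of the 10, Lpl, against 6.17% of all genes on the higher side and 8.83% on the lower, where none of the 10 lay. A log2 change above 1, reached by 5 of the 10, was reached by 3.25% of all genes.

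**Figure D1:**
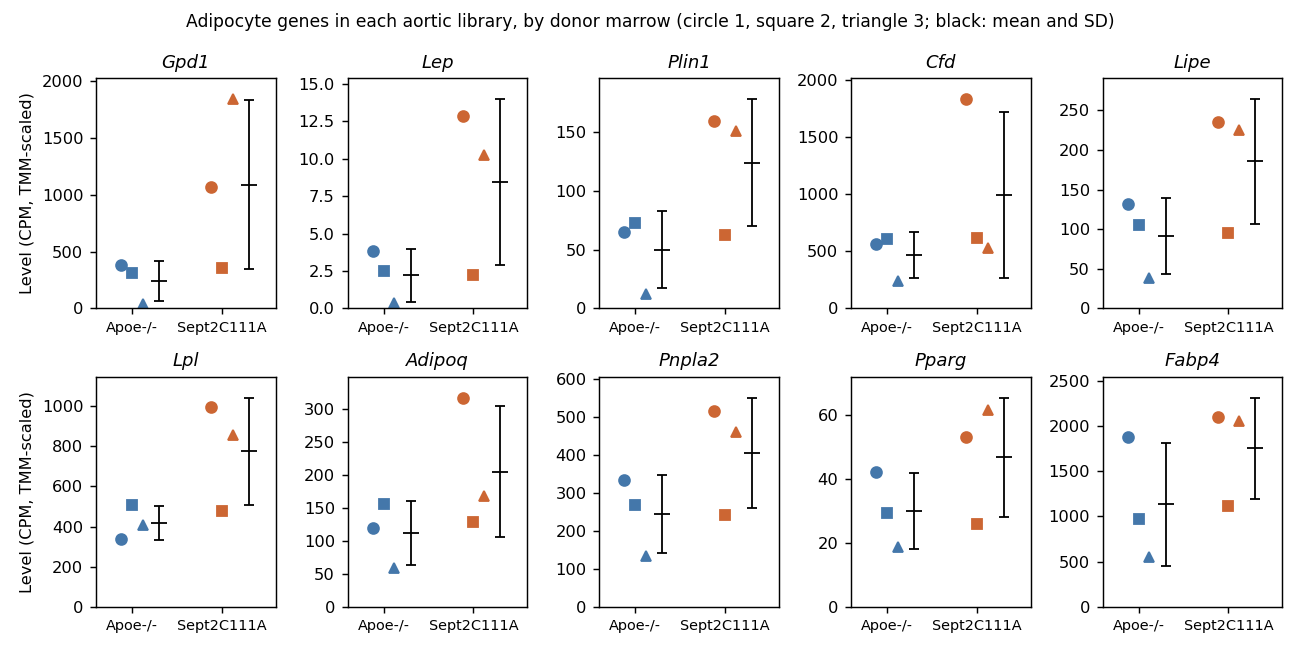
Level of each of the 10 genes (vertical axis, CPM from 0, own scale per gene) in each library, by donor marrow (horizontal axis); circles, squares and triangles are libraries 1, 2 and 3, and black bars are the mean and SD of 3 libraries. Sept2C111A 2 (orange square) lies below the highest control in 9 panels, all but that of Cfd, and control 3 (blue triangle) is lowest in 9 panels, all but that of Lpl.

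Among the hormones, Adipoq (chr16:23146536-23158028, plus strand), which encodes adiponectin, stood at 119.8, 156 and 59.2 CPM in controls 1 to 3 and at 317, 129 and 168 CPM in Sept2C111A 1 to 3. Sept2C111A 1 was the highest, control 3 the lowest, and Sept2C111A 2 lay under control 2. The log2 change was 0.88 (SE 0.46, edgeR adjusted p = 0.386), not beyond the spread of the libraries. It was 0.42 without Sept2C111A 1 and 0.57 without control 3.

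Lep (chr6:29060220-29073877, plus strand), the satiety hormone leptin, was the scarcest of the genes and one of the most variable, at 3.85, 2.47 and 0.346 CPM in controls and 12.9, 2.27 and 10.2 CPM in Sept2C111A recipients. The value of control 3 rests on 7 counts and that of Sept2C111A 1 on 245. From the lowest to the highest library Lep spanned 37.2-fold, against 5.36-fold for Adipoq. Its log2 change of 1.93 (SE 0.93, edgeR adjusted p = 0.365) came with a 95% interval from -0.31 to 4.17.

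Cfd (chr10:79890853-79892655, plus strand), the protease adipsin that starts the alternative complement pathway, was at 561, 606 and 238 CPM in controls and at 1828, 618 and 525 CPM in Sept2C111A recipients. Its pattern differed from that of the other 9 genes in Sept2C111A 3, high for the rest, which lay below controls 1 and 2, and in Sept2C111A 2, which lay just above all 3 controls. The log2 change of 1.08 (SE 0.60, edgeR adjusted p = 0.403) became 0.29 without Sept2C111A 1.

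At the droplet surface, Plin1 (chr7:79720218-79732903, minus strand), whose product perilipin-1 guards stored fat from lipases, was at 65.1, 72.3 and 12.6 CPM in controls and 159, 62.1 and 150.2 CPM in Sept2C111A recipients. Sept2C111A 1 and 3 thus held more than each control, and Sept2C111A 2 less than controls 1 and 2. The log2 change was 1.31 (SE 0.67, edgeR adjusted p = 0.378), and 0.85 without control 3.

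The lipases of the droplet varied together. Lipe (chr7:25379527-25398710, minus strand), hormone-sensitive lipase, was at 132, 105 and 38.6 CPM in controls and 235, 95.1 and 226 CPM in Sept2C111A recipients, and Pnpla2 (chr7:141455198-141460743, plus strand), which makes the first cut in triglyceride, at 333, 267 and 133 CPM and 516, 241 and 459 CPM. Both gave the same order of the 6 libraries. Their log2 changes were 1.02 (SE 0.53) and 0.73 (SE 0.42), with edgeR adjusted p of 0.382 and 0.418, and without control 3 they were 0.65 and 0.43.

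Lpl (chr8:68880491-68907448, plus strand), the lipase that works outside the cell on the capillary wall, had the smallest p of the 10. It was at 337, 509.7 and 408 CPM in controls and 995, 479 and 855 CPM in Sept2C111A recipients. It was also the exception among the 10, as control 1 and not control 3 held the least. The log2 change was 0.89 (SE 0.32), with a 95% interval from 0.11 to 1.67 before adjustment and an edgeR adjusted p of 0.316. DESeq2 gave an adjusted p of 0.108 with all libraries, 0.0451 without control 2 and 0.0029 without Sept2C111A 2, so its call depended on which libraries were kept, an alternative chosen after seeing the data. Lpl alone of the 10 had expected counts that were fractional, in all 6 libraries, so part of its reads were assigned in shares between genes, while the counts of the other 9 were whole.

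Gpd1 (chr15:99717515-99725005, plus strand), which turns a product of glycolysis into the glycerol backbone of triglyceride, had the largest difference and the widest range. It was at 379, 308 and 40.2 CPM in controls and 1065.5, 356 and 1837 CPM in Sept2C111A recipients, a 45.7-fold span. The log2 change of 2.16 (SE 0.92, edgeR adjusted p = 0.340) had a 95% interval from -0.05 to 4.38, and was 1.05 with control 3 and Sept2C111A 3 both left out, an alternative chosen after seeing the data. Gpd1 overlaps an antisense transcript, Gm16537, over 384 exon bases, and Lipe overlaps 4732471J01Rik over 918, neither of which has a row of its own, and without a stated strand setting reads of the overlap cannot be separated.

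Pparg and Fabp4 had the smallest log2 changes with all 6 libraries, and both depended on which libraries were kept. Pparg (chr6:115360951-115490399, plus strand), the receptor that directs fat cell formation, was at 42.2, 29.3 and 18.6 CPM in controls and 53.0, 25.9 and 61.4 CPM in Sept2C111A recipients, a log2 change of 0.64 (SE 0.41, edgeR adjusted p = 0.452). Fabp4 (chr3:10204088-10208576, minus strand), which ferries fatty acids inside the cell, was at 1882, 972 and 552 CPM in controls and 2100.2, 1111 and 2055 CPM in Sept2C111A recipients, a log2 change of 0.63 (SE 0.51, edgeR adjusted p = 0.541). Without control 1 Fabp4 gave 1.21 and Pparg 0.97, above the 0.93 of Adipoq and the 0.76 of Lpl in the same fit. Without control 3 they gave 0.30 and 0.39, without Sept2C111A 3 0.51 and 0.41, and with both of these libraries left out 0.17 and 0.14. Control 1 held nearly as much Fabp4 as the highest libraries, and Fabp4 made up 48.8% of the summed level of the 10 genes there, against 28.8% to 36.8% in the other 5 libraries.

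**Figure D2:**
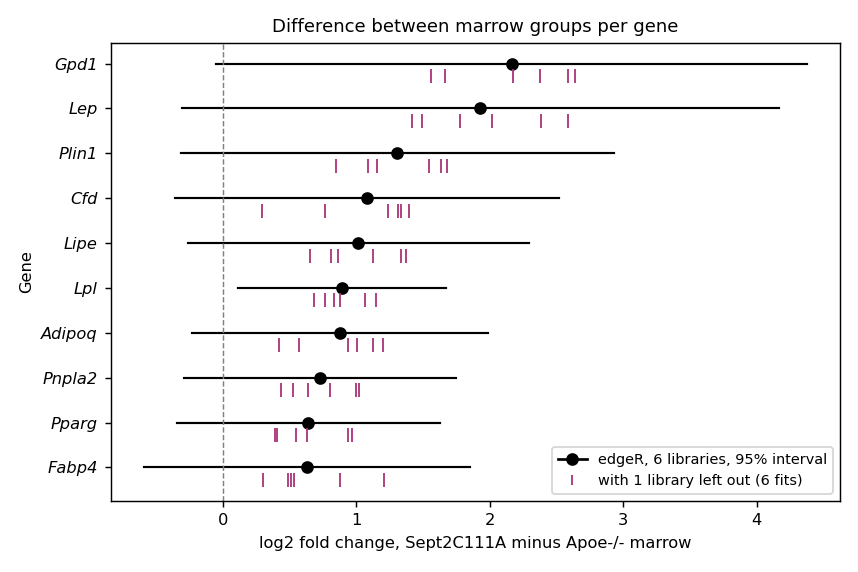
Log2 fold change of each gene (horizontal axis, Sept2C111A minus Apoe-/- marrow) from edgeR over 6 libraries (black point) with its 95% interval before adjustment (line), and the values with 1 library left out (purple ticks). All points and ticks lie above 0, and the interval of Lpl alone, from 0.11 to 1.67, does not reach 0.

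Across libraries, the genes stood high or low mostly together. Control 3 was the lowest of the 6 for 9 of the 10 genes, where it was the lowest for 28.6% of all genes tested, and Sept2C111A 1 was the highest for 8 of 10, against 10.1% of all genes. Relative to each gene's own mean over the 6 libraries, the 10 genes lay on average at -1.68 on the log2 scale in control 3, with an SD of 0.95 over genes, and at 1.15 and 0.88 in Sept2C111A 1 and 3. Controls 1 and 2 and Sept2C111A 2 were at 0.03, -0.15 and -0.23. Pearson's r of log2 CPM over the 6 libraries ran from 0.535 (Lpl with Fabp4) to 0.999 (Lep with Lipe) over pairs of these genes, with a median of 0.904. The pairs share the same 6 libraries, so these values are a description.

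**Figure D3:**
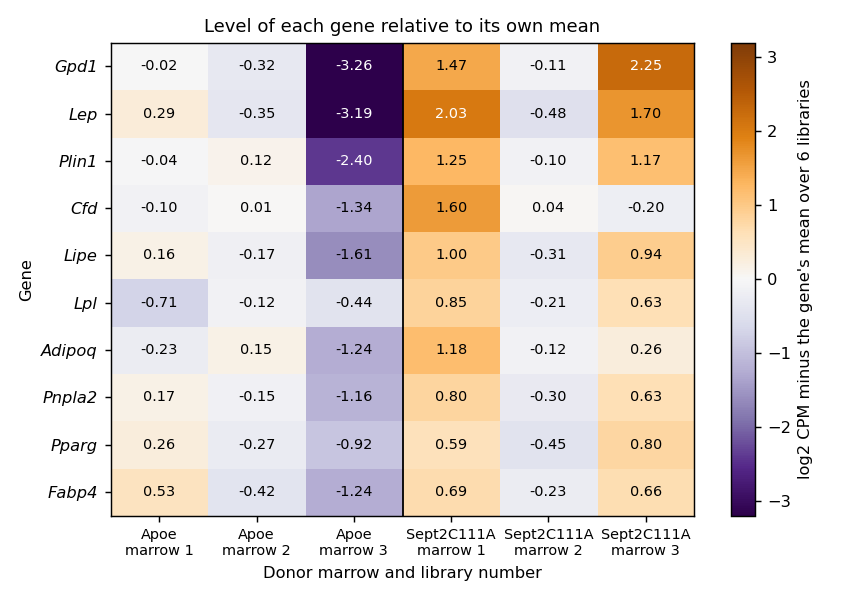
Log2 CPM of each gene (rows) in each library (columns) minus the gene's mean over the 6 libraries; orange is above the mean and purple below, and a line parts the donor groups. Control 3 is at -3.26 for Gpd1 and at -0.44 for Lpl, and Sept2C111A 3 is at 2.25 for Gpd1 but at -0.20 for Cfd.

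To compare the make-up of the fat signal rather than its amount, each gene was set against Adipoq of the same library. The ratios of Pnpla2, Cfd, Lipe, Pparg, Lpl and Fabp4 to Adipoq stayed within 1.71-fold, 1.85-fold, 2.06-fold, 2.18-fold, 2.45-fold and 2.52-fold over the 6 libraries. Plin1 varied 4.19-fold, Lep 10.4-fold and Gpd1 16.1-fold. The Gpd1 to Adipoq ratio was 3.16, 1.98 and 0.678 in controls and 3.36, 2.77 and 10.9 in Sept2C111A recipients, so that control 3 and Sept2C111A 3 lay at the ends and the other 4 libraries near each other. Lep came to 3.22%, 1.59% and 0.584% of Adipoq in controls and 4.06%, 1.76% and 6.08% in Sept2C111A recipients, with the same libraries at the ends. The groups overlapped in all 9 ratios. Mean log2 ratios differed by 1.53 for Gpd1 and 1.29 for Lep (each p = 0.2, two-sided exact permutation test, 3 against 3) and by -0.03 for Lpl (p = 0.9), and none of the 9 tests gave less than 0.2. Without control 3 the difference was 0.90 for Gpd1 and 0.64 for Lep, without Sept2C111A 3 it was 0.91 and 0.89, and with Plin1 as the reference in place of Adipoq it was 0.86 and 0.62.

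**Figure D4:**
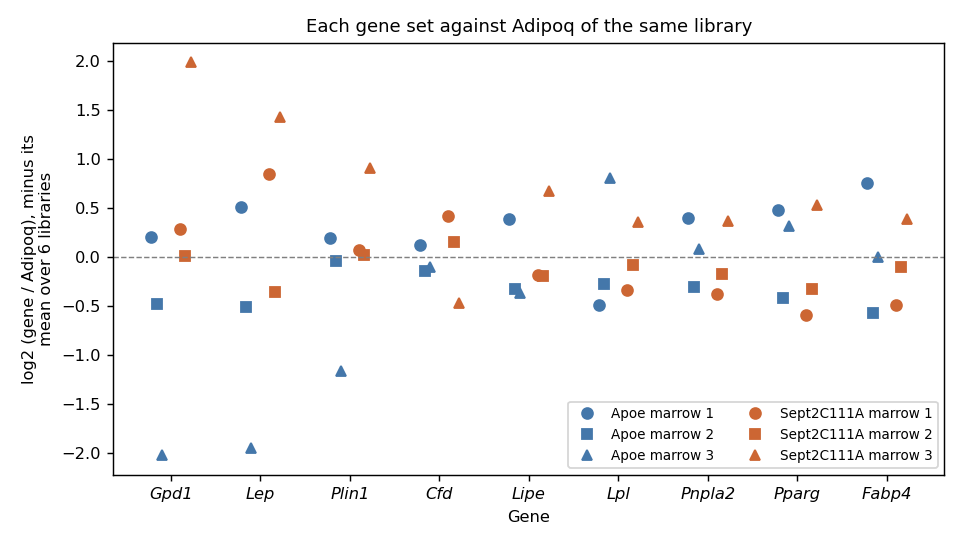
Log2 ratio of each gene to Adipoq in the same library, minus its mean over the 6 libraries (vertical axis), for 9 genes (horizontal axis); colour is donor marrow and the symbol the library number. The ratios of Gpd1 and Lep spread widely, with control 3 lowest and Sept2C111A 3 highest, while those of Cfd, Lipe and Pnpla2 lie close together.

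Levels can be ranked between genes only per transcript length, here as mean CPM per kilobase of annotated exon. Cfd was highest at 791, followed by Fabp4 at 322, Gpd1 at 224, Adipoq at 115, Pnpla2 at 108, Lpl at 57.0, Lipe at 23.5, Plin1 at 18.7, Pparg at 13.0 and Lep at 1.59. On this measure Cfd exceeded Fabp4 in all 6 libraries, with values from 258 to 1983 and from 123 to 468. The order was not kept in each library between Fabp4 and Gpd1 (5 of 6), Gpd1 and Adipoq (4 of 6), Adipoq and Pnpla2 (3 of 6) or Plin1 and Pparg (4 of 6). Exon length was the union over all annotated isoforms, whichever of them the aorta uses. For Fabp4 that union was 4489 bases and covered the whole gene without a gap, so its rank below Cfd depends on this length. Before division by length the mean was 1445 CPM for Fabp4 and 729 CPM for Cfd.

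Other genes of the fat pathways were less even in direction. Of 96 genes in the pathway lists described next, complement and brown fat aside, 90 were tested, 65 were higher and 25 lower in Sept2C111A recipients, 0 passed edgeR's adjusted test and the median log2 change was 0.40. DESeq2 called 1 higher and 2 lower, a share near that over all genes (1.1% higher and 2.9% lower), and they are named for that reason after their values were seen. Lepr, the leptin receptor, was at 4.52, 6.15 and 5.49 CPM in controls and 9.67, 9.39 and 11.3 CPM in Sept2C111A recipients (DESeq2 adjusted p = 0.00628). Apoc2, the cofactor of lipoprotein lipase, was lower, at 3.18, 3.94 and 3.16 CPM in controls and 0.946, 0.166 and 0.111 CPM in Sept2C111A recipients (DESeq2 adjusted p = 0.00846). The mean count of Apoc2 over the 6 libraries was 36.5, so its values in Sept2C111A recipients rest on few counts. Ppard, a relative of Pparg, was lower as well, at 40.1, 33.8 and 35.6 CPM and 27.0, 26.2 and 28.2 CPM (DESeq2 adjusted p = 0.0438). By edgeR all 3 had an adjusted p of 0.316.

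Glycerol phosphate and triglyceride synthesis came closest to the 10 genes, with 12 of 14 genes higher and a median log2 change of 1.04. Pck1, which feeds glycerol synthesis from pyruvate, was at 255, 338 and 53.8 CPM in controls and 451, 217 and 683 CPM in Sept2C111A recipients. Acsl1, which activates fatty acids, Dgat2, which makes the last step to triglyceride, and Agpat2, which makes phosphatidate, had log2 changes of 1.02, 1.51 and 1.87 (SE 0.51, 0.95 and 0.67). Agpat2 was the one of these 4 whose groups did not overlap, at 22.1 to 88.0 CPM and 96.9 to 369 CPM. Its edgeR adjusted p was 0.316. In this list 2 of the 14 genes lay wholly higher in Sept2C111A recipients, where 11.2% of all genes did.

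On the droplet coat, 10 of 12 tested genes were higher, with a median log2 change of 0.51. The 2 most abundant, Cavin1 and Cav1, build caveolae in fat cells but also in smooth muscle and endothelium. Their groups did not overlap, at 476 to 662 CPM against 766 to 906 CPM for Cavin1. In this list 4 of the 12 tested genes lay wholly higher in Sept2C111A recipients, against 11.2% of all genes. Plin4 (log2 change 0.35, SE 0.46), a fat cell perilipin, and Plin2 (-0.43, SE 0.48), the perilipin of most other cells, overlapped between groups. Cidec, which fuses droplets in white fat cells, was at 144, 93.0 and 27.3 CPM in controls and 284, 79.6 and 165 CPM in Sept2C111A recipients, in the pattern of Plin1. Control 3 illustrates the split within the family: it held 150.4 CPM of Plin4, the lowest of the 6 libraries, and 364 CPM of Plin2, the second highest.

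In the control of lipolysis, 13 of 15 genes were higher (median 0.40). Mgll, the monoglyceride lipase that ends the breakdown, was at 101 to 170.3 CPM in controls and 195 to 273 CPM in Sept2C111A recipients, with a log2 change of 0.75 (SE 0.25). Npr1, a natriuretic peptide receptor that drives lipolysis and is abundant in vascular smooth muscle too, had 0.74 (SE 0.47), and Prkar2b and Prkaca, subunits of protein kinase A, had 1.22 (SE 0.51) and 0.41 (SE 0.17). None of these 4 passed the test, with edgeR adjusted p from 0.316 to 0.447.

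Partners of lipoprotein lipase split evenly, 7 higher and 6 lower (median 0.23). Angptl4, a secreted inhibitor of the enzyme, was at 114, 122 and 270.2 CPM in controls and 91.2, 55.0 and 95.4 CPM in Sept2C111A recipients, the opposite direction to Lpl, with a log2 change of -1.07 (SE 0.40, edgeR adjusted p = 0.321). Cd36, the fatty acid receptor, had 0.44 (SE 0.38), Lrp1, a large uptake receptor for lipoproteins, -0.18 (SE 0.24) and Sel1l, needed for the enzyme to leave the cell, -0.19 (SE 0.13).

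Hormone receptors and further adipokines gave 7 higher and 5 lower of 12 (median 0.15). Cdh13, a receptor that holds adiponectin on vascular cells, had a log2 change of 0.75 (SE 0.40), Adipor2 0.10 (SE 0.36) and Adipor1 -0.44 (SE 0.17), and Rbp4, the retinol carrier, 0.99 (SE 0.90). Retn, the fat cell hormone resistin, ran from 2.32 CPM in control 3 to 91.5 CPM in Sept2C111A 1 (log2 change 1.09, SE 0.93). Apln and Aplnr went the other way, with log2 changes of -3.70 (SE 1.12) and -2.11 (SE 0.74). Retn, Apln and Aplnr lay outside the 4 most abundant genes of this list and were named with their values known. Rbp4 did not follow the 10 genes, as Sept2C111A 2 held the most, 235 CPM. Partners of PPARG gave 15 higher and 6 lower of 21 (median 0.18), with the corepressor Ncor1 at -0.01, the lipid synthesis regulator Srebf1 at 0.58 and Cebpd, an early C/EBP factor of fat cell formation, at 0.46 (SE 0.11, 0.33 and 0.26). Of other fatty acid binding proteins, Fabp5, known from skin and macrophages, had -0.19 (SE 0.42), and Fabp3, the form of heart and brown fat, was at 2.92 to 23.2 CPM in controls and 36.9, 15.0 and 134 CPM in Sept2C111A recipients. In the alternative complement pathway, 5 of 9 genes were higher (median 0.13). C3, its central component, had 0.64 (SE 0.42), Cfb, the substrate of adipsin, 0.13 (SE 0.32) and Cfp, the stabiliser properdin, -0.81 (SE 0.31). None of these passed edgeR's adjusted test, and DESeq2 called C3ar1 and C5ar1, receptors for the cleaved fragments carried by myeloid cells, lower, at -1.10 (SE 0.23, DESeq2 adjusted p = 0.00519) and -2.51 (SE 0.80, DESeq2 adjusted p = 0.0223). These were 2 of the 9 complement genes, where DESeq2 called 2.9% of all genes lower.

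The sum of the brown fat genes was likewise lowest in control 3, and it ran over a wider range, from 39.7 CPM there to 2056 CPM in Sept2C111A 3. Ucp1 was at 299, 169 and 2.18 CPM in controls and 541, 162 and 1159 CPM in Sept2C111A recipients, with a log2 change of 1.99 (SE 1.43, edgeR adjusted p = 0.497). Cidea, a droplet protein of brown fat, stood at 107, 114 and 2.47 CPM and at 189.6, 113 and 285 CPM. The ratio of Gpd1 to Ucp1 was 1.27 to 2.19 in 5 libraries and 18.5 in control 3. The ratio of Adipoq to Ucp1 was 27.2 in control 3 and 0.145 to 0.919 in the other 5, lowest in Sept2C111A 3. Of the 10 brown fat genes 9 were higher, with a median log2 change of 1.37 and 0 called by either edgeR or DESeq2. Dio2, the deiodinase that activates thyroid hormone, did not follow Ucp1, with 533 CPM in control 1 and 108 in Sept2C111A 3, and Prdm16, a regulator of brown fat, was highest in Sept2C111A 2 at 138 CPM.

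**Figure D5:**
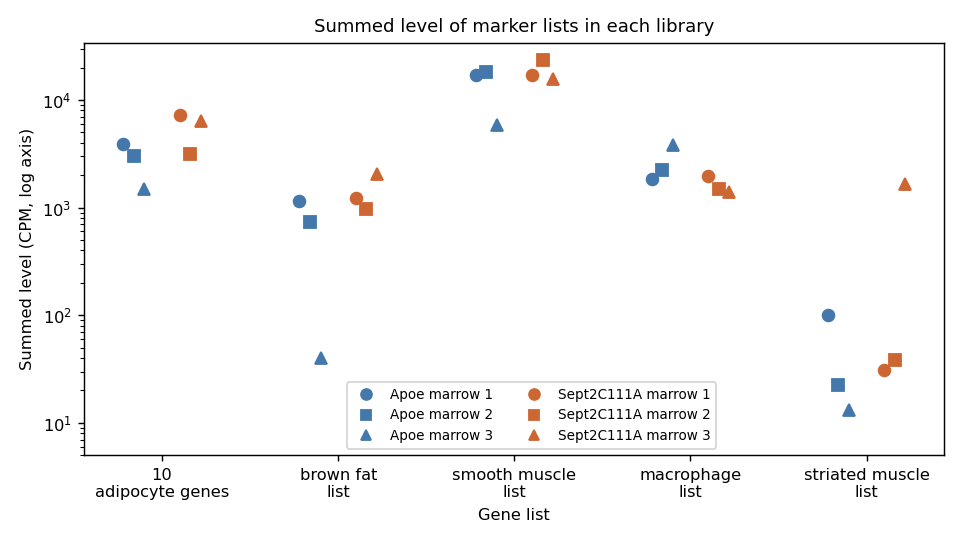
Summed level of 5 gene lists (vertical axis, CPM, log axis) in each library; colour is donor marrow and the symbol the library number. Control 3 is lowest for the 10 adipocyte genes, for brown fat, for smooth muscle and for striated muscle and highest for macrophages, and Sept2C111A 3 stands far above the other libraries for striated muscle.

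Markers of other cell types moved with some libraries, and their part in the fat gene levels was not tested. Smooth muscle genes (8 of 8 tested) summed to 5859 CPM in control 3 and to between 15643 and 23409 CPM in the other 5, and Myh11, a contractile myosin, was at 714 CPM in control 3 against 3025 to 4857 elsewhere. Set against the smooth muscle sum of the same library, the 10 genes came to 22.7%, 16.5% and 25.6% in controls and 42.7%, 13.3% and 40.6% in Sept2C111A recipients. On that measure, chosen after seeing the data, control 3 was the highest control and the difference of the log2 sums was 0.42 (p = 0.6, two-sided exact permutation test) in place of 1.01. Macrophage genes (12 of 12 tested, 10 lower, of which DESeq2 called 1, Spp1, against 2.9% of all genes called lower) summed to 3820 CPM in control 3, to 1835 and 2236 in controls 1 and 2 and to 1399 to 1970 in Sept2C111A recipients. Spp1 was a large part of the control 3 sum, at 254, 419 and 1390 CPM in controls 1 to 3 and 118, 74.7 and 87.9 CPM in Sept2C111A 1 to 3. Of the genes also known from macrophages, Fabp4 and Pparg were lowest in control 3. Lpl, at 408 CPM there, lay above control 1 (337 CPM) but below control 2 (509.7 CPM) and below each Sept2C111A library. Striated muscle genes (6 of 9 tested) summed to 1650.3 CPM in Sept2C111A 3 and to 13.2 to 99.6 CPM in the others, and Myh6, the myosin of the atrium and adult mouse heart, was at 856 CPM there, a tissue in which Lpl and Fabp3 are also abundant.

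The remaining marker lists are given by their summed level in controls and then in Sept2C111A recipients. Capillary endothelium (8 of 8 tested, 4 higher) ran from 861 to 1202 and from 746 to 1338 CPM, adipocyte progenitors (8 of 9, 6 higher) from 1076 to 1915 and from 2030.1 to 2095 CPM, and Schwann cells (6 of 7, 2 higher) from 193 to 262 and from 258 to 345 CPM. Neutrophil genes (7 of 10 tested, 7 lower, 6 of them called by DESeq2 and 0 by edgeR) ran from 89.4 to 2918 and from 16.7 to 28.8 CPM. DESeq2 called 2.9% of all genes lower. The 2918 CPM was control 1 alone, with 89.4 and 333 CPM in controls 2 and 3. Red cell genes (5 of 6, 5 lower) ran from 70.6 to 1684 and from 202 to 708 CPM, lymphocyte genes (8 of 10, 6 lower) from 14.9 to 34.7 and from 6.69 to 24.5 CPM, and mesothelial genes (3 of 9, 2 lower) from 3.79 to 13.0 and from 4.23 to 8.30 CPM. Progenitor genes, which include Pi16 and Cd34 of the adventitia, did not overlap between the groups in sum, and Cd34 was at 192 to 269 and 383 to 412 CPM (log2 change 0.82, SE 0.18, DESeq2 adjusted p = 0.00125, edgeR adjusted p = 0.316). Of the 8 tested progenitor genes, 3 lay wholly higher in Sept2C111A recipients, against 11.2% of all genes. DESeq2 called 1 of them, where it called 1.1% of all genes higher. No gene of these lists with a row, tested or not, was at 0 in every library.

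Outside the lists, the 10 named genes whose log2 CPM over the 6 libraries followed Adipoq most closely, among 12426 genes, had Pearson's r from 0.98 to 0.99. They were Car3, Zfp873, Tst, Gstz1, Pon1, Sctr, Car5b, Slc18b1, Mup19 and Acsm3. Car3, carbonic anhydrase 3, a protein known to be abundant in fat cells, was at 597, 733 and 326 CPM in controls and 1693, 709.7 and 779 CPM in Sept2C111A recipients, with Sept2C111A 1 highest and control 3 lowest as for Adipoq. Car5b is a mitochondrial carbonic anhydrase and Pon1 a lipoprotein-bound esterase. These are the highest of 12426 values over 6 libraries, given as a description, and none of the 10 genes passed edgeR's adjusted test.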

How the data were processed

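RNA of 6 whole aortas was enriched with oligo(dT) beads, per the labels' protocols. The authors deposited expected counts per gene, made with Bowtie2 and RSEM 1.3.1 on build mm10, per the submitters' processing notes. RSEM divides reads that match several genes, so between 34.6% and 35.9% of values were fractional, and these were rounded to whole numbers. Genes were filtered with filterByExpr (minimum count 10), scaled by TMM and tested with edgeR 4.0.16 (quasi-likelihood, Benjamini-Hochberg adjustment over 14466 genes, threshold 0.05) in R 4.3.3. DESeq2 1.42.0, limma 3.58.1 and the other settings of the closing section were alternatives. Single values per library were compared by exact permutation. The design text gives 3 animals a group, so p-values measure the spread between these samples. The 10 genes and the lists (209 genes, 206 with a row) were chosen with earlier results of these data known. Of each list, the 4 most abundant genes and any called gene were named, with others named as chosen later, and some of these are not reported here. The 10 genes most like Adipoq were ranked by Pearson's r, with predicted genes skipped. No pair of libraries of the same group agreed within sampling noise, and pairs across the groups were not checked for this. The count table of Sept2C111A 3 carries another library number in its heading, and its sample was taken from GEO's record.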

Additional observations from a re-analysis of the deposited data

How the results depend on the processing

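With edgeR, 0 genes were called under any alternative run, while DESeq2 called 158 higher and 417 lower, and between 24 and 752 higher and between 109 and 1017 lower when 1 library was left out. Those counts, higher then lower, were 65 and 267, 752 and 1017, and 75 and 248 without controls 1 to 3, and 27 and 213, 237 and 423, and 24 and 109 without Sept2C111A 1 to 3. The fold changes of the 10 genes lay above 0 in 200 of 200 combinations of gene and alternative, and 2 of these passed the threshold, both for Lpl with DESeq2. The alternatives reuse the same 6 libraries and the 10 genes vary together, so the combinations are not independent. The median of the 10 fold changes ran from 0.61 (without Sept2C111A 1) to 1.24 (without Sept2C111A 2) with edgeR. Same-numbered libraries of the 2 groups did not deviate together (correlations of 0.02, 0.13 and -0.17), and with the number as a replicate block the median was 0.93, with 0 genes called. The difference of the summed level ran from 0.62 to 1.39 on leaving out 1 library and was 1.05 with library totals alone. Ratios to Adipoq that lay near 0 changed sign, and the cause was not tested. Leaving out 1 library gave -0.11 to 0.33 for Cfd, -0.28 to 0.36 for Lpl, -0.083 to 0.45 for Lipe, -0.34 to 0.046 for Pnpla2 and -0.45 to 0.22 for Fabp4. With Plin1 as the reference, Cfd gave -0.59 and Lipe -0.47. With 3 libraries a group the exact tests cannot reach 0.05, and the 7 counts of Lep in control 3 limit its fold change.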
